A study of Mus musculus with 5 samples.

Results

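The insulin-like growth factor (IGF) system of the mouse retina was followed through 10 genes, 2 ligands (Igf1 and Igf2), 3 receptors (Igf1r, Igf2r and Insr) and 5 binding proteins (Igfbp2, Igfbp3, Igfbp4, Igfbp5 and Igfbp7). They were chosen by gene symbol from the 33636 rows of the count table, each symbol had 1 row, and all 10 were measured in every library. The 5 retinal libraries came from 3 male C57BL/6J mice, a common inbred strain, whose right eye had worn a translucent goggle for 2 weeks, from postnatal day (P) 28 to P42. Form deprivation of this kind blurs the retinal image and shifts the refraction of a young eye towards myopia. In 2 form-deprived (FDM) eyes the refractive error at P42 was 0.976 and 0.2745 D, and in the 3 uncovered contralateral control eyes it was 2.4455, 3.1505 and 2.465 D. FDM 1 and Control 1 came from mouse 1, FDM 3 and Control 3 from mouse 3, and Control 2 has no partner, because the other FDM library of the experiment was removed for its read duplication. The sample labels give the library called FDM 3 here the number 2, while the study's own mouse number and the column of the count table are 3. All control eyes belonged to goggled animals, so no retina of an untreated mouse is part of the comparison.

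IGF1 and IGF2 are small peptides related to insulin. IGF1 acts mainly through the IGF1 receptor, a tyrosine kinase close in structure to the insulin receptor Insr, and both receptors signal through insulin receptor substrates to the PI3K, AKT and mTOR kinases. Igf2r carries no kinase: it is the mannose 6-phosphate receptor, which sorts lysosomal enzymes and takes IGF2 out of circulation. The binding proteins hold IGFs outside the cell, prolong their life and limit or deliver them to receptors, and proteases such as the pappalysins release the ligand by cutting them. IGFBP7 binds IGFs with lower affinity than the other binding proteins. In the retina the system is known for its part in neuronal survival and vessel growth, and insulin and IGF1 injected into chick eyes are known to promote eye growth.

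All 10 genes are protein coding. On the mouse build GRCm38, the ligands lie on chromosome 10 (Igf1, 87858265 to 87937042, plus strand) and chromosome 7 (Igf2, 142650766 to 142666816, minus strand). The receptor genes are Igf1r (chromosome 7, 67952827 to 68233668, plus strand), Igf2r (chromosome 17, 12682406 to 12769664, minus strand) and Insr (chromosome 8, 3122061 to 3279617, minus strand). Igfbp2 (72824503 to 72852474, plus strand) and Igfbp5 (72857932 to 72874884, minus strand) are neighbours on chromosome 1 whose 3' ends face each other. Igfbp3 (7206086 to 7213923, minus strand) and Igfbp4 (99041244 to 99054392, plus strand) lie on chromosome 11, and Igfbp7 lies on chromosome 5 (77349240 to 77408041, minus strand). The library kit does not mark the strand of a transcript. Igf2 shares 3596 exonic bases with the gene model Gm49394 and 98 with its antisense gene Igf2os, neither of which was analysed here, so Igf2 counts may include their reads. Igfbp7 shares 85 exonic bases with Polr2b, an RNA polymerase subunit gene on the opposite strand.

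The counts summed to between 40599047 and 56534931 per library. Levels are given as CPM, counts scaled to the library total with edgeR's TMM factors. Markers of the retina were present throughout: the photoreceptor genes summed to between 43201 and 55573 CPM, and 4 Müller glia genes to between 3039 and 3228 CPM. Libraries also differed in genes of neighbouring tissue. Summed markers of the retinal pigment epithelium (RPE) were at 294 CPM in Control 2 and 342 in Control 3 against 77.0 to 86.9 in the other libraries, with 7 of 13 lower in FDM at an unadjusted p under 0.05 in edgeR and 0 after adjustment. Lens markers were at 1958 CPM in FDM 3 against 2.38 to 17.9 elsewhere. In whole tissue, fewer cells of a type and less RNA per cell cannot be told apart.

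Expressed per kilobase of merged exon, which makes genes comparable, the mean level over the 5 libraries was highest for Igfbp7 (13.6 ± 2.66 CPM per kb, SD, n = 5) and Igf1r (10.7 ± 0.619). Igfbp4 (9.60 ± 0.732), Igfbp5 (8.53 ± 1.92) and Igfbp2 (8.35 ± 0.847) followed. The ranges of each neighbouring pair down to Igfbp2 overlapped, so no gene was set apart from the next in this order. Insr (6.10 ± 0.785) and Igf2 (6.10 ± 0.179) stood level with each other, with the highest Insr value, 7.41, under the lowest Igfbp2 value, 7.71. Below them came Igf2r (4.51 ± 0.156), Igf1 (2.00 ± 0.332) and Igfbp3 (0.683 ± 0.112), and none of these 3 ranges overlapped its neighbours. With the longest transcript as length, an alternative added after the data had been seen, Igf1r led at 15.7 CPM per kb, Igfbp7 was second at 13.7 and Igfbp5 stood below Insr, while the last 3 places were the same.

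**Figure D1:**
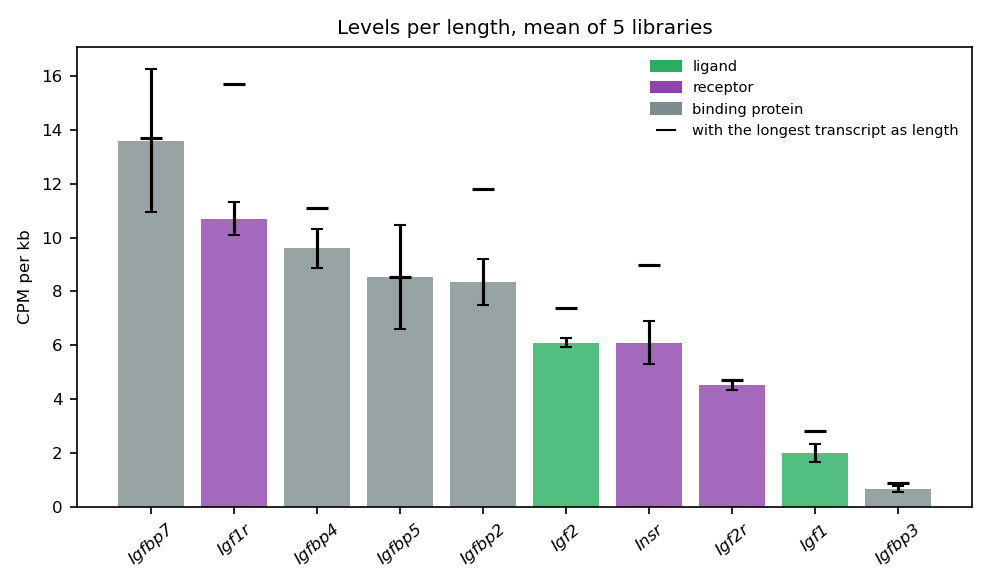
Mean level of each gene in CPM per kilobase of merged exon over the 5 libraries (bars, error bars SD), coloured by role, with the black dashes giving the mean when the longest transcript is used as length. Igfbp7 leads at 13.6 and Igfbp3 is lowest at 0.683; with the longest transcript Igf1r leads at 15.7.

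Between the ligands, Igf2 was the more abundant per kilobase in each of the 5 libraries, by 3.67-fold and 3.02-fold in the FDM eyes and by 3.26-fold, 2.43-fold and 3.15-fold in the control eyes of mice 1 to 3. Igf1r was likewise above Insr in each library, by 1.87-fold and 1.76-fold in FDM 1 and FDM 3, and by 1.96-fold, 1.49-fold and 1.76-fold in Control 1, Control 2 and Control 3. Both ratios were lowest in Control 2. Per kilobase, the binding proteins summed to 35.6 and 42 CPM per kb in the FDM eyes and to 37.9, 37.5 and 50.6 in the control eyes, so that Control 3 was the highest. Igfbp7 made up the largest share of that sum in each library, from 30.6% in FDM 1 to 35.6% in FDM 3. Igfbp3 made up the smallest, 1.63% to 1.72%, and Igfbp4 ranged from 21.2% to 26%, Igfbp5 from 19.3% to 23.6% and Igfbp2 from 18.9% to 21.9%.

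The comparison of FDM with control retinas asks whether the blurred image altered the retinal transcripts of this system. The study's threshold, an unadjusted p of 0.05, was used there with DESeq2 and is applied here to edgeR's quasi-likelihood test. None of the 10 genes passed it: 0 of 10, against 1.61% of the 17432 genes tested (281 genes, none of them after Benjamini-Hochberg adjustment). DESeq2 and limma also called 0 of the 10. The adjusted p in edgeR was 1.0 for each. The CPM of FDM and control libraries overlapped for all 10. Over all genes tested, the 2 groups did not overlap for 10.6%, so 0 of 10 does not set these genes apart. The median difference of the 10 genes (FDM minus control) was -0.05 on the log2 scale, with 2 above and 8 below 0, against -0.01 over all genes tested.

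**Figure D2:**
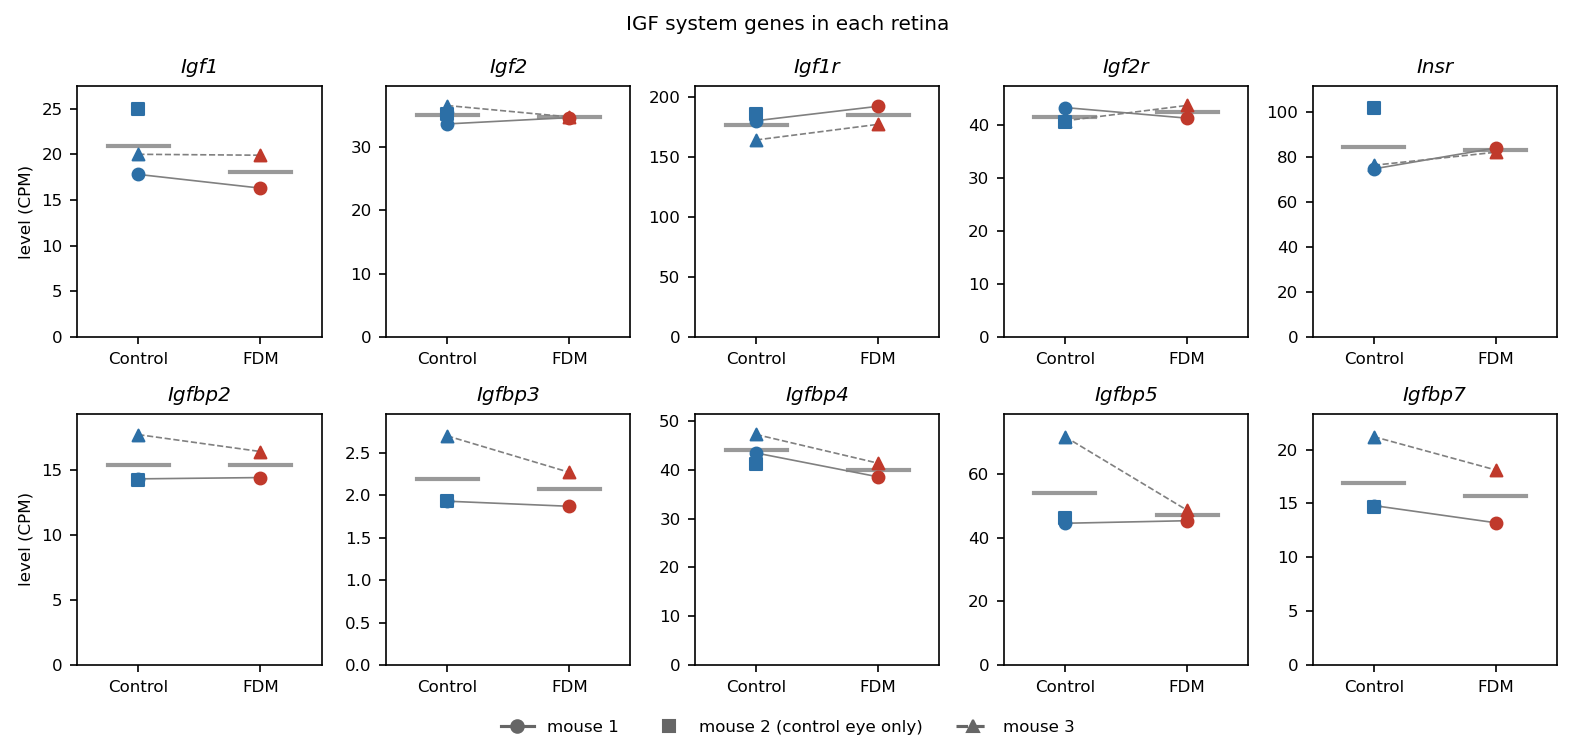
Level of each gene in CPM in every library, with control eyes in blue and FDM eyes in red, grey bars for group means and lines joining the eyes of mouse 1 (circles, solid) and mouse 3 (triangles, dashed); the square is Control 2. FDM and control values overlap in all 10 panels, and all 5 binding proteins are highest in the control eye of mouse 3.

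Igf1, the ligand through which growth hormone acts in many tissues, stood at 16.3 and 19.9 CPM in the FDM eyes of mice 1 and 3, and at 17.8, 25 and 20.0 CPM in the control eyes of mice 1, 2 and 3. Control 2 alone was high, and the other 4 libraries interleaved. The group means were 18.1 ± 2.54 CPM (SD, n = 2) and 21.0 ± 3.68 (n = 3), a log2 difference of -0.21 ± 0.16 (SE), with a 95% confidence interval from -0.59 to 0.16, and did not pass the test (edgeR adjusted p = 1.0). Without Control 2 the difference was -0.06. Within animals it was -0.13 in mouse 1 and -0.01 in mouse 3.

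Igf2, an imprinted growth factor best known from fetal growth, was among the steadiest genes of the retina. Its level was 34.6 and 34.7 CPM in the FDM eyes of mice 1 and 3, and 33.6, 35.1 and 36.5 CPM in the control eyes of mice 1 to 3. These values span 0.12 on the log2 scale, and 94.1% of all genes tested spanned more. The interval of the FDM difference, at a fold of 0.871 to 1.12, bounds any change of this transcript more closely than for Igf1, whose interval was 0.665 to 1.12 (edgeR, 95%).

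Igf1r, the receptor tyrosine kinase for IGF1, was at 192 and 177 CPM in the FDM eyes of mice 1 and 3, and at 180, 186 and 164 CPM in the control eyes of mice 1 to 3. FDM 1 was the highest and Control 3 the lowest, and the difference between groups was 0.06 ± 0.09 on the log2 scale (95% interval -0.15 to 0.28; edgeR adjusted p = 1.0). In both animals the goggled eye was above its partner, by 0.10 in mouse 1 and 0.11 in mouse 3.

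Insr, the insulin receptor, was at 84.1 and 82.2 CPM in the FDM eyes of mice 1 and 3, and at 74.8, 102 and 76.4 CPM in the control eyes of mice 1 to 3. Control 2 was the highest library, while both FDM eyes were above the other control eyes. The unpaired difference of -0.02 ± 0.14 (log2; 95% interval -0.36 to 0.32; edgeR adjusted p = 1.0) turned with Control 2: it was 0.15 without that library and 0.14 when the mouse was a block, and neither value passed the test. The within-animal differences were 0.17 in mouse 1 and 0.11 in mouse 3.

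Igf2r, the receptor that clears IGF2, was about as steady as its ligand, with a coefficient of variation of 3.47% against 2.93% for Igf2. It was at 41.3 and 43.7 CPM in the FDM eyes of mice 1 and 3, and at 43.3, 40.6 and 40.8 CPM in the control eyes of mice 1 to 3, and its span of 0.11 was exceeded by 95.6% of all genes tested. The eyes of both animals differed in opposite directions, by -0.07 in mouse 1 and 0.10 in mouse 3.

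Igfbp5, a binding protein that attaches to extracellular matrix, varied the most among the 10 genes, with Igfbp7 close behind. Igfbp5 was at 45.3 and 48.6 CPM in the FDM eyes of mice 1 and 3. In the control eyes of mice 1 to 3 it was at 44.5, 46.0 and 71.7 CPM. The other 4 libraries lay close together and Control 3 alone stood high. The span over the 5 libraries was 0.69 (log2), and 16.4% of all genes tested spanned more. Of 2929 genes within 0.5 log2 units of its mean level, 2.05% spanned more. The group difference was -0.20 ± 0.21 (log2; 95% interval -0.69 to 0.28; edgeR adjusted p = 1.0), but 0.06 without Control 3, so the sign rested on 1 library. The 3 genes whose deviations over the 5 libraries lay nearest to those of Igfbp5 were Pvalb (Euclidean distance 0.0983), Fam89b (0.102) and Hs3st3a1 (0.131). They were named after the values had been seen. Pvalb, which encodes a calcium-binding protein of fast muscle fibres and some neurons, was at 25.2 CPM in Control 3 and 14.9 to 16.5 in the other libraries. Fam89b was at 8.87 CPM in Control 3 against 5.51 to 6.00, and Hs3st3a1 at 1.12 against 0.623 to 0.728.

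Igfbp7, an abundant secreted protein of vessels, was at 13.2 and 18.1 CPM in the FDM eyes of mice 1 and 3, and at 14.8, 14.7 and 21.2 CPM in the control eyes of mice 1 to 3. Its log2 span was 0.68, and 4.61% of 2236 genes within 0.5 log2 units of its mean level spanned more. Both eyes of mouse 3 were above the rest. In each animal the FDM eye was below its partner, by -0.17 in mouse 1 and -0.23 in mouse 3. The unpaired difference of -0.11 ± 0.20 (log2; 95% interval -0.59 to 0.36; edgeR adjusted p = 1.0) became 0.09 without Control 3 and 0.10 without FDM 1.

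Igfbp4, a binding protein that acts mainly by withholding IGFs, was at 38.6 and 41.4 CPM in the FDM eyes of mice 1 and 3, and at 43.5, 41.3 and 47.3 CPM in the control eyes of mice 1 to 3. Its difference was -0.14 ± 0.09 (log2; 95% interval -0.35 to 0.08; edgeR adjusted p = 1.0), and its FDM value overlapped the control values only through FDM 3 and Control 2. The FDM eye was lower in both animals, by -0.17 and -0.19.

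Igfbp2, which is also produced by many neural tissues, had equal group means of 15.4 ± 1.41 CPM in FDM and 15.4 ± 1.98 in control eyes. Its values were 14.4 and 16.4 CPM in FDM 1 and FDM 3, and 14.3, 14.2 and 17.7 in Control 1, Control 2 and Control 3. Igfbp3, the main carrier of IGFs in serum, was the rarest with 77 to 128 counts per library. It stood at 1.87 and 2.27 CPM in the FDM eyes and at 1.93, 1.93 and 2.70 in the control eyes, and its interval was the widest, from -0.59 to 0.43 (log2). For both genes mouse 3 was above mouse 1 in either eye.

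**Figure D3:**
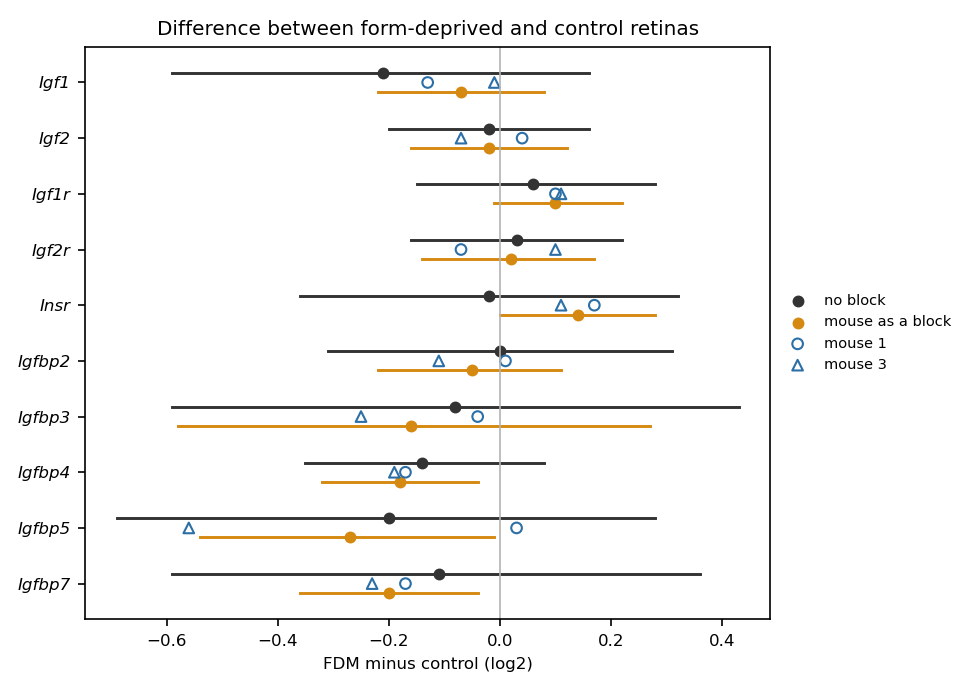
Difference between FDM and control retinas on the log2 scale for each gene, as the edgeR estimate with its 95% confidence interval without a block (black) and with the mouse as a block (orange), and the within-animal differences of mouse 1 (open circles) and mouse 3 (open triangles). Every black interval includes 0; the orange intervals of Igfbp4, Igfbp5 and Igfbp7 lie below 0.

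Because the fellow eye was the control, the mouse was also used as a block. In that fit the difference rests on the 2 complete pairs, and 1 residual degree of freedom remains. The standard errors of this fit rest mostly on variances that edgeR shares across genes, not on the spread of the 2 pairs. Here 3 of the 10 genes passed the unadjusted threshold, all of them binding proteins that were lower in FDM, against 7.23% of all genes tested in either direction and 3.67% in this one. The difference was -0.18 ± 0.06 for Igfbp4 (log2, SE; 95% interval -0.32 to -0.04), -0.20 ± 0.07 for Igfbp7 (-0.36 to -0.04) and -0.27 ± 0.12 for Igfbp5 (-0.54 to -0.01). The edgeR adjusted p was 0.619 for Igfbp4 and Igfbp7 and 0.683 for Igfbp5, so none passed after adjustment over all genes. In the same fit 10 of 13 RPE markers, 4 of 6 fibroblast markers and all 3 skeletal muscle markers passed the unadjusted threshold as lower in FDM. In each of these lists 1 passed after adjustment (Slc26a4, Dcn and Myl1). Lens markers went the other way: all 7 tested passed as higher in FDM, 4 of them after adjustment. Summed RPE markers were at 83.3 CPM in FDM 1 and 86.9 in Control 1, but at 77.0 in FDM 3 and 342 in Control 3. Fibroblast markers were at 16.8 and 18.2 in mouse 1, and at 23.6 and 39.4 in mouse 3. Skeletal muscle markers were at 6.48 and 6.29 in mouse 1, and at 7.61 and 36.1 in mouse 3. The part of these tissues in the calls of the binding proteins was not tested. Both pairs shared the direction for Igfbp4 and Igfbp7. For Igfbp5 they did not: the difference was 0.03 in mouse 1 and -0.56 in mouse 3. The latter pair holds Control 3, and without that library only mouse 1 would remain. With the numbers of the sample labels as the block in place of the mouse numbers, 0 of the 10 passed. That block joins FDM 3 with Control 2, by the mouse numbers an eye of another animal.

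The promoters of these 3 binding protein genes are shown because theirs were the only transcripts of the 10 to pass in any fit reported here. Each window is from RefSeq on GRCm38.p6, runs 5' to 3' on the strand of the gene from 250 bases before the transcript start to 50 after it, and is in lower case with motifs in capitals. Both strands were searched. The capitals mark the TATA box, spelled TATAAA, a variant of it that is spelled TATTTAA, and the GC box, which is spelled GGGCGG and on the opposite strand is read as CCGCCC. The other motifs searched had no match in these windows: the CCAAT box, spelled by its name, an E-box with the letters CAGCTG, a FoxO motif with the letters GTAAACA, and a cAMP-response motif with the letters TGACG.
Igfbp4, chr11:99040994-99041293, plus strand: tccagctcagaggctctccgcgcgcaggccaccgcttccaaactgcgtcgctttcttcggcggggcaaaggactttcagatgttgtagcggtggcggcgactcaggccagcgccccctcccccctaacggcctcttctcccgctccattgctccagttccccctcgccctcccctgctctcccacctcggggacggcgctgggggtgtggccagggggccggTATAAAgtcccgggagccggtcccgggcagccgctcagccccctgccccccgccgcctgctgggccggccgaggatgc
Igfbp5, chr1:72874816-72875115, minus strand: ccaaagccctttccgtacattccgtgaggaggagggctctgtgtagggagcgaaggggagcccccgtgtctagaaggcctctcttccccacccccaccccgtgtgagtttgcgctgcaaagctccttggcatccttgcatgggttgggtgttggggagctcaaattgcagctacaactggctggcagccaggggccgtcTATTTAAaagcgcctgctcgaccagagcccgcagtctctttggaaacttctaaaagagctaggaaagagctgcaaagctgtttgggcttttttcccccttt
Igfbp7, chr5:77407996-77408295, minus strand: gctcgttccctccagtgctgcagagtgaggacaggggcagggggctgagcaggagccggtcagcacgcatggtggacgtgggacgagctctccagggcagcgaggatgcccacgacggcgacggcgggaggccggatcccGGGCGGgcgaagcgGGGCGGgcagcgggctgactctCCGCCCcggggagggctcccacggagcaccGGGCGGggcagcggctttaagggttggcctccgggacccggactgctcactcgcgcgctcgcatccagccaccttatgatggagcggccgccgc
The Igfbp4 window had a TATAAA motif beginning 28 bases before the start, which 13.6% of 32851 promoter windows hold somewhere, and a GC content of 71.3%. The Igfbp5 window had TATTTAA at 51 bases before the start, found in 4.51% of windows, and a GC content of 56.3%. The Igfbp7 window had no TATA motif but 4 GC boxes, a motif that 35.7% of windows hold at least once, and a GC content of 73.3%. The 3 windows thus held none of the searched motifs in common. A match of letters is a description and not a measured binding site. RefSeq windows were matched for 9 of the 10 genes, all but Insr.

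Read by library rather than by group, all 5 binding proteins and Igf2 were highest in Control 3, 6 of the 10 genes, while 20.2% of all genes tested were highest there. The deviation of Control 3 from the mean of the 5 libraries was 0.51 for Igfbp5, 0.39 for Igfbp7, 0.34 for Igfbp3, 0.20 for Igfbp2 and 0.16 for Igfbp4 (log2). Igf1 and Insr were highest in Control 2, by 0.35 and 0.29 over the mean, as were 31.4% of all genes tested. Igf1r was highest in FDM 1 and Igf2r in FDM 3.

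**Figure D4:**
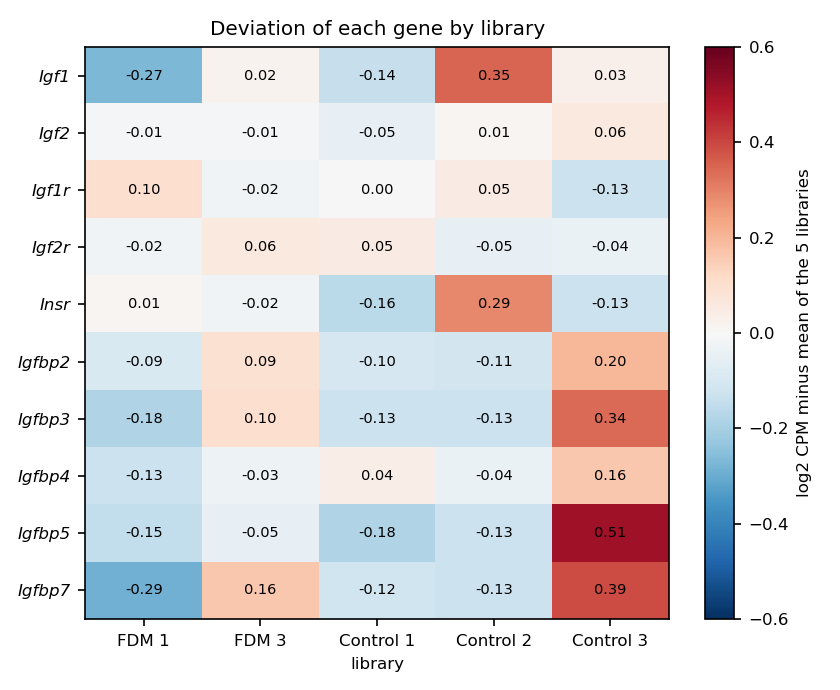
Log2 CPM of each gene in each library minus its mean over the 5 libraries, from blue (below) to red (above). Control 3 is above the mean for all 5 binding proteins, up to 0.51 for Igfbp5, and Control 2 is above it for Igf1 (0.35) and Insr (0.29).

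Several marker lists of tissue next to the retina were high in Control 3, and some of them in Control 2 too. The 5 binding proteins summed to 161 CPM in Control 3 and to between 113 and 127 in the others. Fibroblast markers of choroid, sclera or meninges summed to 39.4 CPM in Control 3, 31.7 in Control 2 and 16.8 to 23.6 in the rest. Of the 6 tested, 4 were highest in Control 3, among them Dcn, which encodes the matrix proteoglycan decorin, at 4.55 CPM against 0.161 to 0.947. Skeletal muscle markers were at 36.1 CPM in Control 3 against 6.29 to 7.61, all 3 tested being highest there, and the fast-fibre gene Myl1 was at 12.4 CPM against 0.161 to 0.491. RPE markers were high in both libraries, with 7 of 13 highest in Control 2, among them Rpe65 at 27.9 against 23.6 CPM, and 6 in Control 3. The latter included the pigment genes Tyrp1, Pmel, Dct and Mlana, with Dct at 76.9 CPM there against 18.7 in Control 2 and 7.34 to 11.4 elsewhere. Endothelial markers (204 to 250 CPM) and pericyte and smooth muscle markers (98.2 to 107) were not highest in Control 3. Microglial markers ran from 49.6 to 58.1 CPM and blood markers from 33.0 to 47.6, both highest in Control 3. The part of these cells in the levels of the binding proteins, and of the high Control 2 library in Igf1 and Insr, was not tested. Of the 10 genes, Igf2r was the only one highest in FDM 3, the library with the lens markers.

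**Figure D5:**
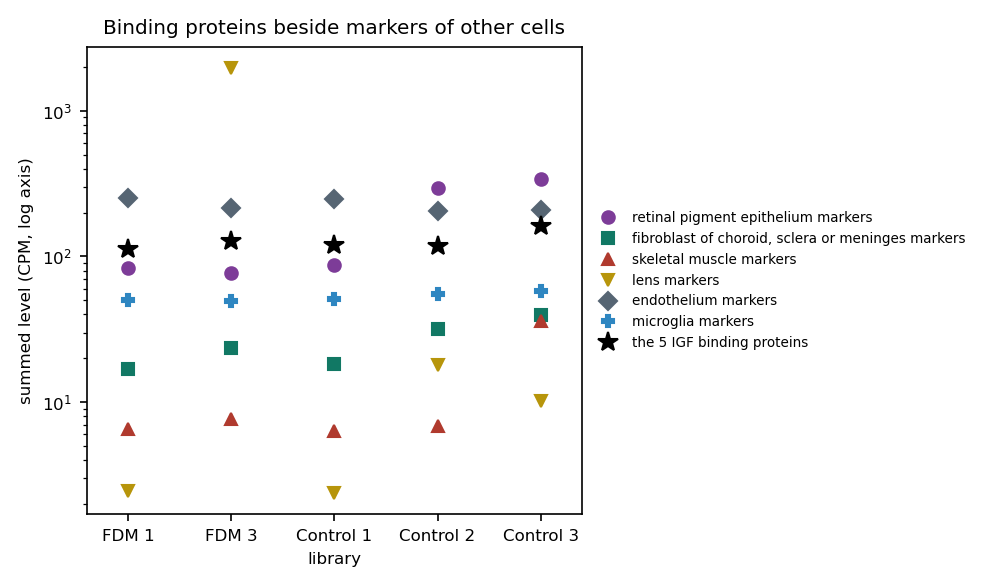
Summed CPM (log axis) of the 5 IGF binding proteins and of marker lists of other cell types in each library. The binding proteins are highest in Control 3, at 161, where fibroblast (39.4) and skeletal muscle (36.1) markers are highest too. Summed RPE markers are at 342 there and at 294 in Control 2, where 7 of the 13 are highest. Lens markers stand at 1958 in FDM 3.

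The wider pathway was read from 67 further genes, of which 64 had a row and 56 enough counts to be tested. None passed the unadjusted threshold in either direction in edgeR, against 1.61% of all genes. Igf2bp1, an mRNA-binding protein of the Igf2 transcript, had a difference of -0.85 ± 0.41 (log2; edgeR adjusted p = 1.0). It had only 14 to 48 counts per library, and Control 1 (0.401 CPM) lay between FDM 1 (0.484) and FDM 3 (0.291). Over the 56 genes tested, the median difference was -0.03 (log2), with 21 genes above and 35 below 0. Genes of the PI3K, AKT and mTOR cascade differed by -0.14 to 0.08 over the 21 tested. Of these 21, 11 were highest in Control 2, as were 25 of the 56 pathway genes tested and 31.4% of all genes tested. Mtor itself ran from 119 to 131 CPM and Akt1 from 98.5 to 119 CPM.

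Among the 12 adaptors and feedback regulators tested, Socs1, an inhibitor of cytokine and insulin signalling, was at 0.646 and 0.790 CPM in the FDM eyes and at 0.476, 0.579 and 0.358 in the control eyes. The groups did not overlap, but the difference of 0.60 ± 0.29 (log2) did not pass the test (edgeR adjusted p = 1.0). The gene had only 17 to 38 counts per library. Of the 56 pathway genes tested, 2 were higher in FDM without overlap and 4 lower, Stc1 among the latter. Over all genes tested, 10.6% did not overlap in either direction. Irs1, the insulin receptor substrate, was at 8.35 and 8.94 CPM in the FDM eyes, and at 6.36, 13.6 and 7.90 in Control 1, Control 2 and Control 3. As for Insr, Control 2 was the highest and both FDM eyes lay above the remaining controls. Rictor, Rps6kb1, Sos1, Stc2 and the Müller glia markers Aqp4 and Slc1a3 had this arrangement too, among others. Its share over all genes was not counted. Whatever the order of the rest, 31.4% of all genes tested were highest in Control 2. Among 9 proteases and their inhibitors, Pappa2, which cuts IGFBP5 and IGFBP3, was at 15.8 and 14.7 CPM in the FDM eyes and at 13.0, 14.7 and 13.1 in the control eyes. Stc1, a stanniocalcin that inhibits the pappalysins, was at 14.6 and 16.3 CPM in the FDM eyes, below all 3 control eyes at 17.1, 18.7 and 17.4 (log2 difference -0.20 ± 0.10; edgeR adjusted p = 1.0).

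In the fit by mouse, 3 of the 56 pathway genes passed at the unadjusted threshold, all higher in FDM, against 7.23% of all genes in either direction. They were Pappa2 (log2 difference 0.22), Irs1 (0.28) and Socs1 (0.80). None passed after adjustment: the edgeR adjusted p = 0.619 for Pappa2, adjusted p = 0.638 for Irs1 and adjusted p = 0.683 for Socs1. With the label numbers as the block, 0 of the 56 passed. These genes were named after their values had been seen. Of the remaining lists, the 4 FoxO factors differed by -0.05 to 0.24, and of 3 further binding proteins 1 was highest in Control 3. That was Igfbp6, with 3.01 CPM there and 1.58 to 1.86 elsewhere, whereas Igfbp1 was highest in FDM 3 (1.12 against 0.927 in Control 3) and Igfbpl1 in Control 2 (0.860 against 0.821). The insulin genes were at the limit of detection: Ins1 had 0 counts in every library, a count of 0 that allows up to 3 by counting error alone, and Ins2 had 0 to 7 counts. The serum carrier subunit Igfals had 4 to 10 counts per library. Igf2os, Airn and H19, untranslated RNAs of the imprinted regions of Igf2 and Igf2r, were not analysed here.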

How the data were processed

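RNA from 5 mouse retinas (2 FDM, 3 control eyes) was prepared with a poly-A, unstranded kit. The authors trimmed reads with Trimmomatic 0.39, quantified transcripts with Salmon 1.10.1 on GRCm38 and used R 4.3.1, per the processing notes and the methods, and deposited estimated counts per gene as whole numbers. They also deposited a signal of normalized counts, in which a factor is applied per gene and library; it was used only as offsets in an alternative and in the limma alternative.

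Of 33636 rows, the 17432 whose estimated counts exceeded 10 in 2 or more libraries were fitted with edgeR 4.0.16 in R 4.3.3 (TMM, quasi-likelihood test, no covariate). The threshold was the study's unadjusted p of 0.05. Benjamini-Hochberg values are over all genes tested, and confidence intervals are at 95%. Totals ran from 40599047 to 56534931. With 2 and 3 libraries, a real difference can go undetected. The intervals give the differences that remain compatible with the data. Each rests on a variance that edgeR moderates across genes, not on the spread between these libraries alone. They cover no animals beyond these libraries. The script was tested on simulated counts. Alternatives used DESeq2 1.42.0, limma 3.58.1 with pseudocounts of 1 and 0.1, other scalings and filters, a block by mouse number or by label number, and leaving out each library. Groups came from the labels.

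The eyes are paired by animal. The deviations of the paired libraries from their group means correlated at 0.247 for mouse 1 and 0.0998 for mouse 3 across 17432 genes, which are not independent replicates. FDM 3 correlated more with Control 2, the partner that its label number would give, at 0.163. These correlations therefore do not settle which number is right. With 2 FDM libraries, each value has the opposite sign for the other one. The pairing rests on the study's mouse numbers, since the labels number the FDM library of mouse 3 as 2. With these mouse numbers, the refractive errors at P42 can meet the mean and SD of the interocular shift that the paper gives. With the label number for FDM 3, they would give a larger SD at that mean.

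Gene coordinates and exon lengths are from GENCODE M21 on GRCm38, in which 33585 of 33635 identifiers were found, and promoter windows are from RefSeq on GRCm38.p6. The genes named are the 10 members, any pathway gene past the threshold (none), and for a member spanning over 1 log2 unit the 3 genes nearest in pattern (no member did). Other genes named were chosen after their values were seen. The members, pathway lists and marker lists were chosen with earlier results of these data known.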

Additional observations from a re-analysis of the deposited data

How the results depend on the processing

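No member passed the unadjusted threshold in edgeR, DESeq2, limma, with other scalings or filters, or without any one library (0 to 0). With the replicate block by mouse number 3 passed, and with the block by label number 0. Of the pathway genes, 1 passed with the authors' factors as offsets, 3 with the block by mouse number and 0 with the block by label number. With each library left out in turn, 0 to 4 pathway genes passed, 4 of them without Control 1 and 3 without Control 2. The cause was not tested.

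Of 150 alternative values of the 10 differences, 126 had the same direction and side of the threshold, 3 passed it (Igfbp4, Igfbp5 and Igfbp7 with the mouse block) and 21 changed sign, none of which passed. The Insr difference was 0.012 with limma at a pseudocount of 1 or 0.1, and 0.137 with the mouse block. Igfbp2, whose difference was -0.001, gave 0.005 with RLE size factors and in DESeq2, and 0.010 with library totals. With the block by label number, the differences were 0.011 for Igf2, 0.108 for Igfbp2, 0.099 for Igfbp3, 0.052 for Igfbp5 and 0.066 for Igfbp7. The cause was not tested.

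With each library left out, the log2 difference ran from -0.36 to -0.06 for Igf1, -0.045 to 0.017 for Igf2, 0.01 to 0.12 for Igf1r, -0.010 to 0.072 for Igf2r and -0.10 to 0.15 for Insr. For the binding proteins it ran from -0.10 to 0.12 for Igfbp2, -0.23 to 0.11 for Igfbp3, -0.19 to -0.08 for Igfbp4, -0.324 to 0.058 for Igfbp5 and -0.36 to 0.10 for Igfbp7. Where 1 FDM library remained, it was assumed to vary like the control libraries. Igfbp2, Igfbp3, Igfbp5 and Igfbp7 all changed sign without Control 3.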
